A study of Mus musculus with 6 samples.

Results

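Serotonin (5-HT) receptor genes were examined in RNA-seq libraries of the prefrontal cortex (PFC) of control mice and of mice given early life stress (ELS). The 10 genes were taken by symbol from the deposited table of 22000 genes, namely Htr1a, Htr1b, Htr1d, Htr1f, Htr2a, Htr2c, Htr3a, Htr4, Htr5a and Htr7. All mice were wild-type C57BL/6N males aged 9 weeks, with 3 per group and 1 library per mouse. ELS mice were kept alone under a filter cap from weaning on, whereas controls shared a cage with other males and had no filter cap. According to the study's methods, both kinds came from litters of the same mothers, went through behavioural tests and stayed in their housing until dissection. The comparison asks which transcripts of the PFC differ after social isolation. The tissue was sequenced in bulk, so that fewer cells of a type and less RNA per cell cannot be told apart.

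Serotonin reaches the cortex through axons of raphe neurons in the brainstem, and its effect on a cortical cell depends on the receptors that cell carries. The Htr1 and Htr5 receptors couple to inhibitory Gi/o proteins, the Htr2 receptors couple to Gq and phospholipase C, and Htr4, Htr6 and Htr7 raise cAMP through Gs. Htr3a encodes a subunit of a ligand-gated cation channel and is the only member that is not a G protein-coupled receptor. In the PFC, Htr1a and Htr2a are best known for opposing actions on pyramidal neurons, and both have long been studied in anxiety and mood.

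The libraries held 28405795 to 35241743 counts, and the ELS libraries were the deeper ones without exception. Slc17a7, the vesicular glutamate transporter of cortical pyramidal neurons, had 1481 to 1703 CPM (counts scaled to library size with TMM factors) in the 6 mice. Of the 7 markers of raphe serotonin neurons, Fev, Gata3, Slc6a4 and Slc18a2 were at or near 0, while Tph2, Ddc and Gata2 were not. Fev and Gata3 had no read in any mouse (a count of 0 allows up to 3 counts), the serotonin transporter gene Slc6a4 had at most 2 reads per mouse, and Tph2, the neuronal enzyme of serotonin synthesis, had 1.07 to 1.75 CPM. Ddc, an enzyme that dopamine synthesis also uses, had 4.69 to 7.82 CPM, and Gata2 had 3.06 to 4.61 CPM. A pair of libraries stood apart in striatal markers. The summed level of 9 striatal genes was 432 CPM in control mouse 3 and 417 CPM in ELS mouse 1, against 240.0 to 300.4 CPM in the other 4 mice.

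None of the receptor genes was called different between the groups. Of the 10 genes, 8 passed the filter of at least 1 CPM in every mouse of either group and were tested, and these 8 had at least 1 CPM in all 6 mice. Htr1d and Htr4 fell under the filter. Genes were called where the p of edgeR's quasi-likelihood test stayed under 0.05 after Benjamini-Hochberg adjustment and the log2 fold change exceeded 0.3 in size, the thresholds of the study's methods. That test called 0 of the 8 genes, against 0.0152% of the 13185 genes tested. DESeq2 also called 0 of the 8 (0.137% of all genes), as did edgeR's likelihood ratio test (0.212% of all genes). At an unadjusted p under 0.05 there was 1 gene, Htr2c, by each of the 3 tests, against 4.23% of all genes in the quasi-likelihood test, 3.72% in DESeq2 and 4.95% in the likelihood ratio test. Htr2c and Htr3a were the 2 tested members with a fitted log2 fold change above 0.3 in size, as were 4.64% of all genes. The groups did not overlap in 2 of the 8, Htr1a and Htr7, against 8.28% of all genes, and these lay in opposite directions (3.81% of all genes were higher in ELS mice in this way and 4.47% lower). Fitted log2 fold changes were above 0 for 5 of the 8 and below 0 for 3, with a median of 0.12, and 47.5% of all genes were above 0. The median absolute log2 fold change was 0.15 for the 8 genes and 0.06 for all genes. Counting error enlarges absolute fold changes at low counts, and this comparison was not matched for level.

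**Figure D1:**
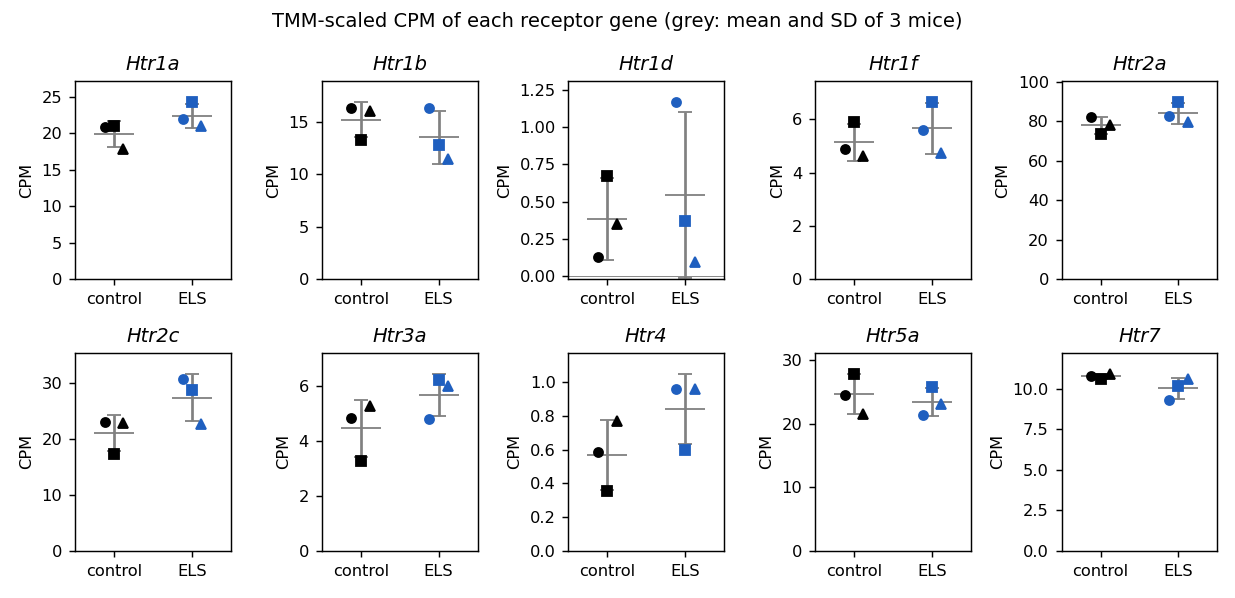
Level of each serotonin receptor gene in TMM-scaled CPM (vertical axes, linear) in control mice (black) and ELS mice (blue). Circles, squares and triangles mark mice 1, 2 and 3, and grey bars give the mean and SD of 3 mice. Most panels show groups that overlap, and in Htr2c, ELS mice 1 and 2 at 30.8 and 28.8 CPM lie above the control mice.

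The Gq-coupled receptors were taken first. Htr2a, the receptor of classical psychedelics and the main excitatory serotonin receptor of pyramidal neurons, spans bases 74640840 to 74709494 of chromosome 14 in GRCm38 (plus strand), with 3 coding blocks. Control mice 1 to 3 had 82.3, 73.7 and 77.9 CPM of Htr2a, and ELS mice 1 to 3 had 82.8, 89.5 and 79.4 CPM. The lowest mouse was a control and the highest an ELS mouse, but the groups overlapped. The means were 78.0 ± 4.31 CPM for controls and 83.9 ± 5.17 CPM for ELS (± SD, n = 3 mice). The log2 fold change of Htr2a was 0.11 (standard error, SE, 0.0723, adjusted p = 1 by quasi-likelihood in edgeR). Its 95% interval, from -0.05 to 0.26, lay inside the fold change threshold of 0.3 in either direction. Htr2a was the only tested receptor gene with an interval that narrow. Without ELS mouse 2 the estimate was 0.05, and without control mouse 2 it was 0.07.

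Htr2c, a Gq-coupled receptor whose transcript is edited by ADAR enzymes and is abundant in choroid plexus, lies on chromosome X from 146962513 to 147197277 (plus strand), with its coding sequence in 5 blocks. Control mice 1 to 3 had 23.0, 17.4 and 22.9 CPM of Htr2c, whereas ELS mice 1 to 3 had 30.8, 28.8 and 22.7 CPM. Both ELS mouse 1 and ELS mouse 2 exceeded all controls, and ELS mouse 3 lay just under control mouse 3, so that the groups overlapped. The means were 21.1 ± 3.23 CPM for controls and 27.5 ± 4.24 CPM for ELS (± SD, n = 3 mice). Fitted by edgeR, the log2 fold change was 0.38 (SE 0.128, 95% interval 0.10 to 0.66), or 1.30-fold, with an unadjusted p of 0.0113 and an adjusted p of 0.97 in edgeR's quasi-likelihood test. By unadjusted p, Htr2c ranked 154 among all genes tested. An exact permutation test on its log2 levels gave p = 0.3 (two-sided). DESeq2 gave an adjusted p of 0.622 and the likelihood ratio test 0.424. The unadjusted p was 0.0607 without control mouse 2 and 0.0583 without ELS mouse 1, with log2 fold changes of 0.26 and 0.29.

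Tissues that carry much Htr2c were checked in the same libraries. Ttr, the defining transcript of choroid plexus, had 0.65, 0.142 and 0.384 CPM in control mice 1 to 3, against 0.54, 0.315 and 0.155 CPM for ELS mice 1 to 3, and was highest in a control mouse. The 8 choroid plexus markers together had 3.64, 2.62 and 2.97 CPM in control mice 1 to 3 and 4.89, 3.89 and 2.57 CPM in ELS mice 1 to 3. Kl was the only marker of that list that passed the 1 CPM filter. Kl made up the largest part of the sum. The summed choroid plexus level, unlike Ttr, was highest in the same pair of ELS mice as Htr2c, at a small part of the Htr2c level, and its part in the Htr2c difference was not tested. The striatal list was highest in control mouse 3 and ELS mouse 1. With the striatal level as a covariate, an alternative chosen after the data were seen, Htr2c had a log2 fold change of 0.34 and an adjusted p of 0.301. Without control mouse 3 the log2 fold change was 0.44. The summed level of 6 claustrum markers was 480.8 to 484.4 CPM in control mice and 493.6 to 531.2 CPM in ELS mice, without overlap. Of these 6, 5 had fitted log2 fold changes above 0 and 2, Gnb4 and Oprk1, were higher in ELS mice at unadjusted p of 0.0113 and 0.0169 (adjusted p of 0.97 and 1 in the quasi-likelihood test), where 1.89% of all genes were so. Gng2 was level at 0.01, and Nr4a2 had the opposite sign, with a log2 fold change of -0.24 from 24.3 to 20.5 CPM. Gng2 and Synpr, at means of 223.6 and 182.7 CPM over all mice, made up most of the summed claustrum level, and each overlapped between the groups. The part of these cells in the Htr2c difference was not tested either.

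**Figure D2:**
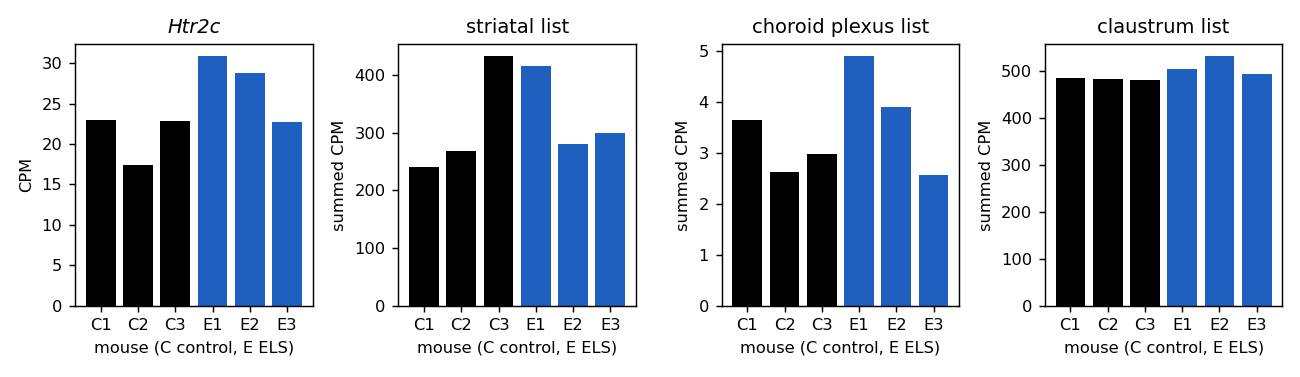
Htr2c (CPM) beside the summed CPM of marker lists for striatal neurons, choroid plexus and claustrum in each mouse, with control mice in black (C) and ELS mice in blue (E). Htr2c and the choroid plexus list were both highest in ELS mouse 1, at 30.8 CPM and 4.89 CPM, while the striatal list was highest in control mouse 3, at 432 CPM.

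The sequences just upstream of Htr2a, the most abundant member, and Htr2c, the member with the smallest p, are shown so that their makeup can be compared. They come from RefSeq on GRCm38.p6 (chr14:74640624-74640839 and chrX:146962263-146962512, both plus strand) and end at the base before the annotated start of the gene. Capitals mark matches on either strand to the TATA box TATAAA, the CCAAT box, the GC box GGGCGG and the steroid receptor half-site AGAACA.
Htr2a: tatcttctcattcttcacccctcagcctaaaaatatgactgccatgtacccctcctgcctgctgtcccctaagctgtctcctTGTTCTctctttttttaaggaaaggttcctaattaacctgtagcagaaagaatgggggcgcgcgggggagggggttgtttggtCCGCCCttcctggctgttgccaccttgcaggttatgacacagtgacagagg
Htr2c: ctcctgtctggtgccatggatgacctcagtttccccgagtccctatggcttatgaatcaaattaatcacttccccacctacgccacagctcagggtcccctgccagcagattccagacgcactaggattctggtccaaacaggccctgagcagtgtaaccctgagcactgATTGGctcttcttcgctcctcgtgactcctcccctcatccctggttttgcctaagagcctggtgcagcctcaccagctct
In Htr2a a half-site and a GC box were found, and in Htr2c a CCAAT box. Among 32851 promoters of the RefSeq table, 16.1% held the half-site, 32.7% the GC box, 33.8% the CCAAT box and 12.4% TATAAA within 250 bases upstream. Of the 10 members, 8 had an entry in that table (Htr3a and Htr4 did not), with 9 start sites in all, and none of the 9 held TATAAA. Htr2a was the only one with the half-site. The GC content of the 250 bases ran from 49.2% for Htr1f to 82.0% for Htr7, against a median of 52.4% over all promoters, and 99.3% of promoters had a lower value than Htr7. A match to such short letters is a description of the sequence and not a measured binding site.

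Among the Gi/o-coupled receptors, Htr1a, the receptor that slows firing of raphe neurons and hyperpolarizes cortical pyramidal cells, lies on chromosome 13 from 105443639 to 105448122 (plus strand) as a single exon. Control mice 1 to 3 had 20.92, 20.97 and 17.81 CPM of Htr1a, and ELS mice 1 to 3 had 21.92, 24.25 and 21.06 CPM. All ELS mice lay above all controls, but the nearest pair, control mouse 2 and ELS mouse 3, were almost equal. The means were 19.9 ± 1.81 CPM for controls and 22.4 ± 1.65 CPM for ELS (± SD, n = 3 mice). The log2 fold change of Htr1a was 0.17 (SE 0.0939, 95% interval -0.03 to 0.38), with an unadjusted p of 0.0916 and an adjusted p of 1 in edgeR's quasi-likelihood test. The exact permutation test on its log2 levels gave p = 0.1 (two-sided), the smallest value that 3 against 3 mice allow. Any gene whose groups do not overlap gets this value, so it adds nothing to the lack of overlap. Without control mouse 3 the log2 fold change of Htr1a was 0.10, and without ELS mouse 2 it was 0.11. With the striatal covariate it was 0.21, with an unadjusted p of 0.0205 and an adjusted p of 0.549 in edgeR's quasi-likelihood test.

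Htr1b, a receptor of axon terminals that limits transmitter release, lies on chromosome 9 from 81628291 to 81633828 (minus strand). It had 16.3, 13.3 and 16.0 CPM in control mice 1 to 3 and 16.3, 12.8 and 11.4 CPM in ELS mice 1 to 3. ELS mouse 1 was level with the highest controls and ELS mouse 3 was the lowest of the 6. The log2 fold change was -0.17 (SE 0.132, 95% interval -0.46 to 0.12, adjusted p = 1 by quasi-likelihood). It was -0.33 without ELS mouse 1 (unadjusted p of 0.022 and adjusted p of 1 in edgeR), -0.26 without control mouse 2, and -0.06 without ELS mouse 3. Without control mouse 3, which like ELS mouse 1 was high in striatal markers, it was -0.13. An antisense gene on the plus strand covers 18.0% of the Htr1b exon length, and since the strand setting of the counting is not given in the sources used here, reads of these genes may not have been told apart.

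Htr5a, a Gi/o-coupled receptor of the brain, lies on chromosome 5 from 27842149 to 27855088 (plus strand). In control mice 1 to 3 Htr5a stood at 24.5, 27.8 and 21.5 CPM, and in ELS mice 1 to 3 at 21.3, 25.7 and 23.1 CPM. The ELS values lay within or just below the range of the controls. The log2 fold change was -0.07 (SE 0.105, 95% interval -0.30 to 0.15, adjusted p = 1 by quasi-likelihood), and with 1 mouse omitted it ran from -0.16 without control mouse 3 to 0.02 without control mouse 2.

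Htr1f, the receptor bound by the migraine drug lasmiditan, lies on chromosome 16 from 64924729 to 65105854 (minus strand). It had 4.87, 5.91 and 4.61 CPM in control mice 1 to 3 and 5.58, 6.64 and 4.75 CPM in ELS mice 1 to 3. The groups overlapped over most of their range, and the log2 fold change was 0.14 (SE 0.165, 95% interval -0.21 to 0.50, adjusted p = 1 by quasi-likelihood in edgeR). It was 0.01 without ELS mouse 2, 0.07 without control mouse 3, 0.26 without control mouse 2 and 0.25 without ELS mouse 3. In Htr1a, Htr1b, Htr1d and Htr1f the coding sequence was a single block in the annotation, a feature that none of the other members shared.

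Htr1d, a close relative of Htr1b on chromosome 4 from 136423524 to 136444398 (plus strand), was measured with few reads. Its raw counts were 4, 19 and 10 for control mice 1 to 3, against 39, 13 and 3 for ELS mice 1 to 3. The highest and the lowest count were both from ELS mice, and their 95% Poisson intervals, 27.7 to 53.3 and 0.619 to 8.77 counts, did not overlap, so that mice of a group differed by more than counting error. These intervals cover counting error only. In a fit over all genes with at least 1 read, the log2 fold change of Htr1d was 0.52 (SE 0.681, 95% interval -0.91 to 1.95, adjusted p = 1), and without ELS mouse 1 it was -0.68. With this spread between mice, no direction can be given for Htr1d.

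Htr7, a Gs-coupled receptor linked to circadian timing and sleep, lies on chromosome 19 from 35958734 to 36057507 (minus strand) and has 6 annotated transcripts. Control mice 1 to 3 had 10.75, 10.59 and 10.90 CPM of Htr7, and ELS mice 1 to 3 had 9.297, 10.15 and 10.58 CPM. The ELS mice were all below the controls, though ELS mouse 3 and control mouse 2 were nearly equal. The control mice were the least spread of any member, with a coefficient of variation of 1.44%, against 6.504% in ELS mice. Raw counts of Htr7 in control mice 1 to 3 were 331, 299 and 312. Counting error alone would spread such counts more widely, so the small spread was not taken as a trait of Htr7. The log2 fold change was -0.10 (SE 0.102, 95% interval -0.33 to 0.12, adjusted p = 1 by quasi-likelihood). The exact permutation test gave p = 0.1 (two-sided), which again follows from the lack of overlap alone. Without ELS mouse 1 the fitted value was -0.055.

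Htr4, the other Gs-coupled member, had raw counts of 18, 10 and 22 for control mice 1 to 3, against 32, 21 and 31 for ELS mice 1 to 3. After scaling, the controls had 0.585, 0.354 and 0.768 CPM, against 0.96, 0.601 and 0.961 CPM for the ELS mice. ELS mice 1 and 3 were above all controls, and ELS mouse 2 was within their range. In the fit over all genes with a read the log2 fold change of Htr4 was 0.56 (SE 0.397, 95% interval -0.28 to 1.39, adjusted p = 1). The interval took in both 0 and differences well above the threshold of 0.3, and the estimate was 0.31 without control mouse 2 and 0.82 without control mouse 3.

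Htr3a, the channel subunit that marks a class of cortical interneurons derived from the caudal ganglionic eminence, lies on chromosome 9 from 48899213 to 48911099 (minus strand), with its coding sequence in 9 blocks. Control mice 1 to 3 had 4.84, 3.29 and 5.27 CPM of Htr3a, and ELS mice 1 to 3 had 4.80, 6.24 and 6.02 CPM. ELS mice 2 and 3 were above all controls, whereas ELS mouse 1 lay between control mice 2 and 1. The means were 4.47 ± 1.04 CPM for controls and 5.68 ± 0.774 CPM for ELS (± SD, n = 3 mice). The log2 fold change of Htr3a was 0.35 (SE 0.186, 95% interval -0.06 to 0.75), with an unadjusted p of 0.0878 and an adjusted p of 1 in edgeR's quasi-likelihood test. It was 0.17 without control mouse 2, the lowest mouse, and 0.48 without control mouse 3 and 0.45 without ELS mouse 1, where the unadjusted p was 0.0285 and 0.0416.

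Other markers of the interneuron class of Htr3a were looked at in the same way. Of the 10 markers listed, 9 had fitted log2 fold changes above 0, with a median of 0.12, against 47.5% of all genes above 0. None was called, against 0.0152% of all genes. An unadjusted p under 0.05 in the quasi-likelihood test was found for 3, all higher in ELS mice, where 1.89% of all genes were so. Ndnf, a marker of neurogliaform cells, had 10.4 to 14.5 CPM in control mice and 14.0 to 21.0 CPM in ELS mice, a log2 fold change of 0.57 (adjusted p = 0.714). Sncg had 1.24 to 1.75 CPM and 2.06 to 2.40 CPM, without overlap of the groups, and its log2 fold change was 0.56 (adjusted p = 1). Adarb2 was the third, at 0.27 (adjusted p = 1). Vip and Cck of the same list had log2 fold changes of 0.01 and 0.06, and Reln, counted as above 0, was level. The summed level of the 10 markers ran from 807.7 to 902.5 CPM in control mice and from 863.7 to 917.6 CPM in ELS mice. Cck was the largest part of this sum, at a mean of 402.8 CPM over all mice. Whether the number of such cells had a part in the Htr3a values was not tested.

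**Figure D3:**
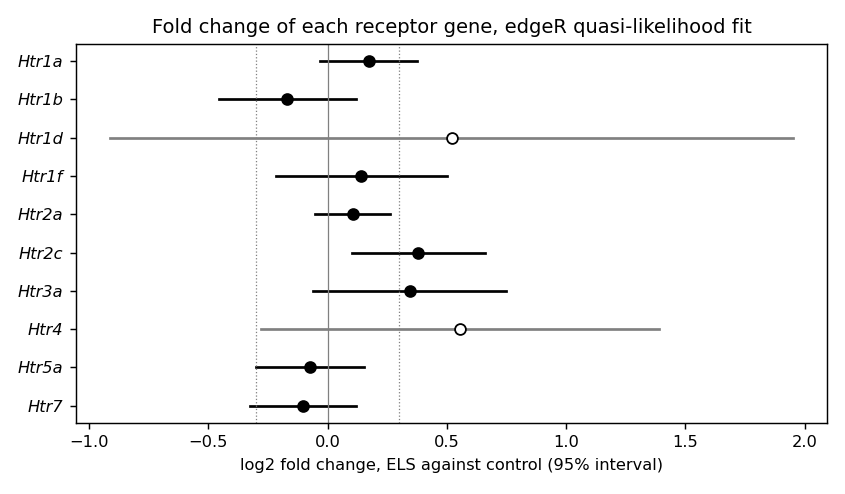
Log2 fold change of each serotonin receptor gene in ELS mice against control mice (points) with its 95% interval (lines) from edgeR's quasi-likelihood fit. Open points and grey lines mark Htr1d and Htr4, which fell under the 1 CPM filter and come from a fit over all genes with a read. Dotted lines stand at log2 fold changes of -0.3 and 0.3, and only the Htr2c interval, 0.10 to 0.66, does not include 0.

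The levels of the receptors were then set in order, per kilobase of merged exon length in GENCODE M21. Htr2a came first in all 6 mice with 14.4 CPM per kb on average (range 13.2 to 16.0), which was 2.81 to 3.50 times Htr1a in the same mouse. Htr1a (4.72 CPM per kb) and Htr5a (4.46 CPM per kb) followed, and Htr1a exceeded Htr5a in 4 of the 6 mice, so that these neighbours did not differ beyond their spread. Below them came Htr7 (3.05), Htr1b (3.04), Htr2c (2.60), Htr3a (2.44) and Htr1f (2.09 CPM per kb), and in each neighbouring pair of these 5 the ranges over mice overlapped. Htr5a exceeded Htr7 in 6 of 6 mice. Htr1d and Htr4 stood far lower, at 0.145 and 0.144 CPM per kb, and Htr1f exceeded Htr1d by at least 5.92 times in each mouse. The length chosen mattered for Htr2c, for which GENCODE has 7 transcripts. Per kilobase of the longest transcript it had 4.97 CPM per kb and moved from rank 6 to rank 2, while the order of the other members stayed as it was.

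**Figure D4:**
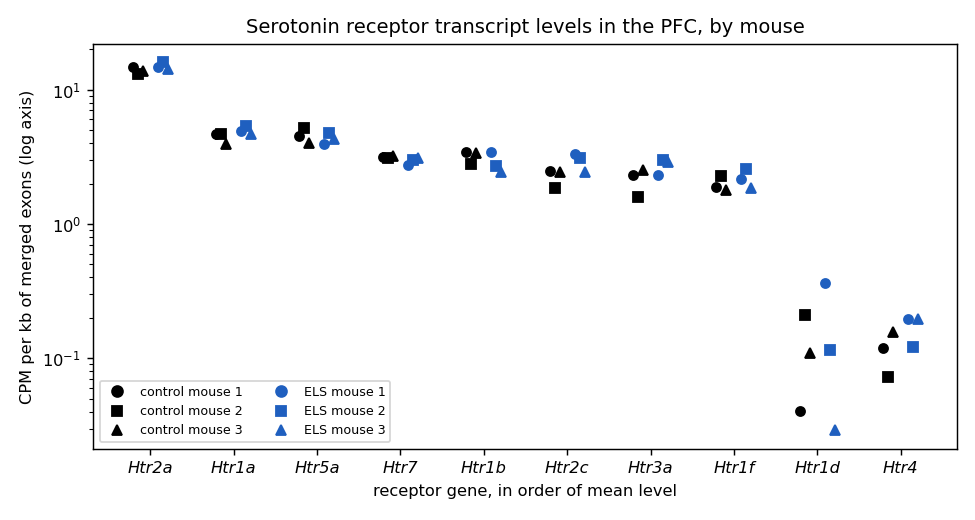
Level of each serotonin receptor gene in CPM per kilobase of merged exons (log axis) in control mice (black) and ELS mice (blue), with circles, squares and triangles for mice 1, 2 and 3. Htr2a lies at 13.2 to 16.0 CPM per kb in every mouse, 7 genes lie between 1.58 and 5.41, and Htr1d and Htr4 lie between 0.0291 and 0.365.

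By coupling, Gq receptors made up 45.0 ± 1.75% of the summed receptor level per kilobase in control mice and 46.7 ± 0.689% in ELS mice (SD, n = 3 each). Gi/o receptors made up 39.9 ± 3.11% and 38.0 ± 1.06%, Gs receptors 9.13 ± 0.343% and 8.16 ± 0.874%, and the channel subunit Htr3a 5.96 ± 1.32% and 7.13 ± 1.002%. These shares are descriptions of members chosen together, and no test was made of them. The ratio of Htr2a to Htr1a per kilobase was 3.15, 2.81 and 3.50 for control mice 1 to 3, against 3.02, 2.95 and 3.02 for ELS mice 1 to 3. The ELS mice lay within the range of the controls in this ratio, which bulk tissue does not assign to a cell type. The ratio of Htr1a to Htr5a, the neighbours in the order, was 1.02, 0.904 and 0.993 for the controls, against 1.23, 1.13 and 1.09 for the ELS mice. These values did not overlap between the groups, and the ratio was picked after the levels were seen.

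The other genes of the serotonin system were counted next. The lists held 57 genes, of which 51 were tested, and none was called in edgeR's quasi-likelihood test, against 0.0152% of all genes. At an unadjusted p under 0.05 there were 4 of the 51, namely 1 higher in ELS mice, where 1.89% of all genes were, and 3 lower, where 2.34% of all genes were. With 1 mouse omitted this number ran from 1 without ELS mouse 3 to 10 without control mouse 3, where 2.77% and 11.7% of all genes had such a p. Of the 51, 22 had log2 fold changes above 0 and 29 below 0, with a median of -0.01, and 47.5% of all genes were above 0. The groups did not overlap in 6 of the 51, 3 higher and 3 lower, against 8.28% of all genes (3.81% higher and 4.47% lower).

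Among the receptors outside the 10 members, only Htr6, a Gs-coupled receptor, passed the filter. Htr6 stood at 3.67, 3.58 and 3.42 CPM in control mice 1 to 3 and, in ELS mice 1 to 3, at 3.33, 5.26 and 5.02 CPM, so that ELS mice 2 and 3 were above all controls and ELS mouse 1 below them. Without ELS mouse 1 the log2 fold change was 0.53, and without ELS mouse 2 it was 0.23. Over all 6 mice it was 0.35 (SE 0.19, adjusted p = 1 by quasi-likelihood). Htr2b, Htr3b and Htr5b had at most 18 reads in any mouse. In synthesis, transport and breakdown, 7 of 10 genes were tested. Slc22a3, an organic cation transporter that takes up serotonin with low affinity, had 2.05, 1.98 and 2.10 CPM in control mice 1 to 3 and 2.55, 3.09 and 3.38 CPM in ELS mice 1 to 3. The ELS mice were all above the controls, and the log2 fold change was 0.56 (SE 0.192, unadjusted p = 0.0129, adjusted p = 1 by quasi-likelihood in edgeR). Without ELS mouse 3 the unadjusted p of Slc22a3 was 0.0579. Tph2 had a log2 fold change of -0.32 (SE 0.258, adjusted p = 1), and it ran from -0.52 without control mouse 1 to -0.20 without control mouse 3.

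Downstream of the receptors, the 9 G protein alpha subunit genes lay between -0.04 and 0.10 in log2 fold change, and none had an unadjusted p under 0.05. Of 19 effector genes, 2 had such a p, Adcy8 and Adcy9, against 4.23% of all genes. The list held 6 adenylyl cyclases, which make cAMP. Adcy8 had 22.4, 23.4 and 18.8 CPM in control mice 1 to 3 and 18.7, 18.0 and 17.1 CPM in ELS mice 1 to 3, with a log2 fold change of -0.26 (SE 0.0962, unadjusted p = 0.0171, adjusted p = 1 by quasi-likelihood). Adcy9 had a log2 fold change of -0.24 (SE 0.0956, unadjusted p = 0.0282, adjusted p = 1), and its groups overlapped. With 1 mouse omitted, Adcy8 ran from -0.35 to -0.20, and its unadjusted p was above 0.05 without control mouse 1, control mouse 2 or ELS mouse 3. Adcy9 ran from -0.36 without ELS mouse 2 to -0.15 without ELS mouse 1, and its unadjusted p was above 0.05 without ELS mouse 1, ELS mouse 3 or control mouse 1. Of the other adenylyl cyclases, Adcy5 was higher in all ELS mice than in all controls with a log2 fold change of 0.06, and Adcy1, Adcy2 and Adcy3 had -0.16, 0.01 and -0.06. The phospholipase C, GIRK channel and protein kinase A genes of the list all had an unadjusted p above 0.05.

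Among 15 regulators of the receptors, Deaf1, a transcription factor known to act on the Htr1a promoter, had the smallest p of all the serotonin system genes. Its level was 42.2, 44.2 and 46.3 CPM in control mice 1 to 3, against 37.5, 37.0 and 30.1 CPM in ELS mice 1 to 3. All ELS mice lay below all controls, with a log2 fold change of -0.34 (SE 0.0899, unadjusted p = 0.00237, adjusted p = 0.705 by quasi-likelihood in edgeR). It passed both thresholds in the fit with the striatal covariate, at an adjusted p of 0.0384, and in no other of 15 alternatives. That fit called 29 of the 13185 genes tested, against 2 in the fit without the covariate. Cc2d1a, the other Htr1a regulator of the list, had 37.9 ± 3.31 CPM in the control group and 38.7 ± 1.10 CPM in the ELS group (SD of 3 mice). The editing enzymes Adar and Adarb1, the Htr2c partner Mpdz, the Htr1b and Htr4 partner S100a10 and the Htr3 chaperone Ric3 had log2 fold changes from -0.12 to 0.03, none with an unadjusted p under 0.05.

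**Figure D5:**
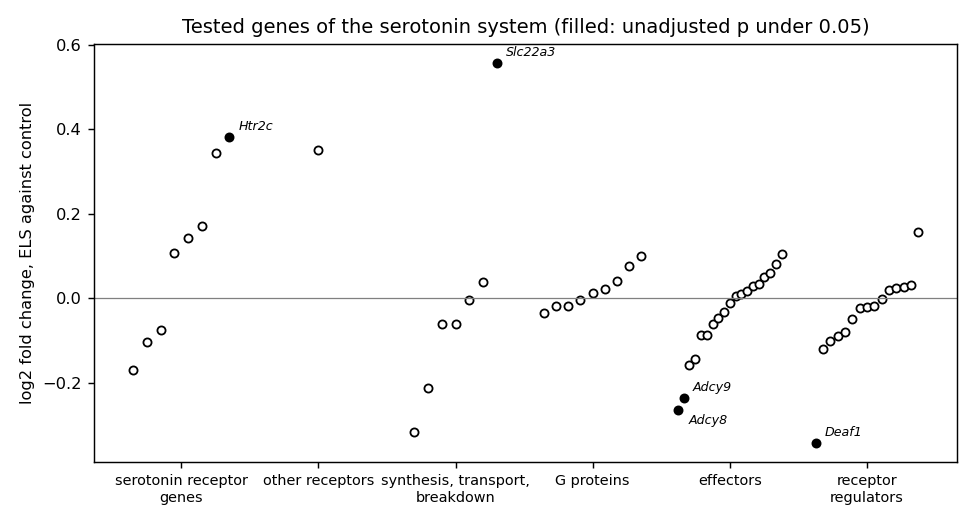
Log2 fold change in ELS mice against control mice (vertical axis) of the tested genes, grouped as the 8 tested serotonin receptor genes, the other receptor gene Htr6, synthesis, transport and breakdown, G proteins, effectors and receptor regulators, sorted within each group. Filled points mark an unadjusted p under 0.05, which are Htr2c at 0.38, Slc22a3 at 0.56, Adcy8 at -0.26, Adcy9 at -0.24 and Deaf1 at -0.34.

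For the 3 tested members with the highest level per kilobase of merged exons, the genes most like them in pattern over the 6 mice were named by the smallest root mean square difference of log2(CPM + 1) from each gene's own mean. For Htr2a these were Thg1l and Slc13a3, with differences of 0.0151 and 0.0200 against an SD of 0.0938 for Htr2a over the mice. For Htr1a they were Pml and Fzd9 (0.0245 and 0.0257, SD 0.137), and for Htr5a they were Tmem170b and Zfp142 (0.0141 and 0.0173, SD 0.144). With 5810 to 9844 candidate genes for each member and 6 mice, close matches of this kind are a description only.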

How the data were processed

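RNA-seq of PFC from 3 control and 3 ELS mice was used, as paired-end libraries of poly(A) RNA. Per the study's methods and the submitters' processing notes, the authors trimmed reads, aligned them to mm10 with STAR and tallied unique alignments over genes in HTSeq 0.9.1, and the deposited values are raw counts that were neither normalized nor pooled. The notes name STAR 2.7.1a, while the paper names another release; they also differ on the stranded library kit. The annotation and strand setting are not given in the sources used here. ELS columns carry the initials of social isolation and a mouse number, and were matched to ELS samples by these. Total counts ran from 28405795 to 35241743, and same-group libraries differed by more than sampling noise (chi-square over degrees of freedom at least 6.70).

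The tests were run with edgeR 4.0.16, DESeq2 1.42.0 and limma 3.58.1 under R 4.3.3. A gene entered them (13185 did) if each mouse of either group reached 1 CPM. TMM factors, a quasi-likelihood fit with condition as its only term and Benjamini-Hochberg adjustment over all genes were used. Standard errors came from the F statistic. CPM are TMM-scaled. P-values set the difference between the groups against a spread between mice that was moderated over all genes. The sources used here do not say which cage or litter each sequenced mouse came from. Members under the filter come from a fit over all genes with at least 1 read. Gene positions and lengths are from GENCODE M21 on GRCm38, which held 89.2% of the symbols. Upstream sequences are from RefSeq on GRCm38.p6. Where a list symbol was missing, RefSeq synonyms were used.

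The members and the gene lists (serotonin system, and markers of pyramidal, deep-layer, interneuron, striatal, choroid plexus, raphe, claustrum and glial cells) were chosen with earlier results of these data known. Text names all members, list genes with an unadjusted p under 0.05, genes most like the 3 members highest per kilobase of merged exons, and markers beside a result. Tph2, Htr6, Cc2d1a, the other adenylyl cyclases and the regulators of named receptors were chosen after their values were seen. The alternatives were DESeq2, the likelihood ratio test, limma-voom, other size factors, other filters, a block for replicate number, and fits with a mouse omitted. The striatal covariate and the longest-transcript length were added after seeing the data. Tests were checked on simulated counts.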

Additional observations from a re-analysis of the deposited data

How the results depend on the processing

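No serotonin receptor gene was called in any of 15 alternatives. The number at an unadjusted p under 0.05 was 1 in edgeR's quasi-likelihood test, 2 with the striatal covariate (Htr1a and Htr2c), and 0 to 2 when a mouse was omitted. It was 0 without control mouse 2, and 2 without control mouse 3 (Htr2c and Htr3a) or ELS mouse 1 (Htr1b and Htr3a). Over all genes the share at an unadjusted p under 0.05 moved too, from 4.23% to 7.13% with the striatal covariate, 3.11% without control mouse 2, 11.7% without control mouse 3 and 3.53% without ELS mouse 1. The members whose groups did not overlap numbered 2, but 1 with upper-quartile factors (Htr1a), 1 without the filter (Htr7) and 1 with filterByExpr (Htr1a), against 8.28%, 8.40%, 8.10% and 8.41% of all genes, since Htr1a and Htr7 were each nearly equal in 1 control and 1 ELS mouse. With a mouse left out they numbered from 2 to 4, and the 4 arose without ELS mouse 1 or ELS mouse 3, where 16.1% and 14.8% of all genes did not overlap (14.8% to 29.5% over the 6 omissions). With the striatal covariate 29 of the 13185 genes tested were called, against 2 without it. Of the other serotonin system genes, 0 were called, and 1 (Deaf1) with that covariate. Those at an unadjusted p under 0.05 numbered 4, but 7 with the striatal covariate, 2 without control mouse 1, 10 without control mouse 3 and 1 without ELS mouse 3, against 4.23%, 7.13%, 4.16%, 11.7% and 2.77% of all genes. Directions were compared for the members and for Slc22a3, Adcy8, Adcy9, Deaf1, Htr6 and Tph2. Among these they reversed only with a mouse left out, for Htr5a, which ran from -0.162 to 0.022, and for Htr1d, which ran from -0.683 to 1.188 in log2 fold change. The cause was not tested.

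With replicate number as a replicate block, Htr2c had a log2 fold change of 0.38 (adjusted p = 0.763 by edgeR's quasi-likelihood test) and 0 receptor genes were called. The labels do not say that a number marks a shared litter, and deviations of same-numbered mice correlated at -0.164, 0.258 and -0.0355, so the numbers were not taken as pairs. Over all genes the quasi-likelihood test called 2, DESeq2 18, the likelihood ratio test 28, the fit without a filter 4, the block 7, the striatal covariate 29, and fits with a mouse left out from 1 to 29, the 29 without control mouse 3.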

Other observations

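The remaining marker lists were compared by their summed levels and by the signs of their genes. Summed levels of 10 pyramidal neuron markers ran from 5826 to 6528 CPM in control mice and from 5525 to 6413 CPM in ELS mice. For 8 markers of Pvalb and Sst interneurons the ranges were 600.9 to 656.9 CPM and 574.7 to 613.9 CPM, and for 7 deep-layer markers 255.9 to 274.2 CPM and 242.1 to 273.4 CPM. Astrocyte markers ran from 5483 to 5580 CPM and from 4843 to 5637 CPM, microglia markers from 296.1 to 312.8 CPM and from 307.0 to 326.0 CPM, and oligodendrocyte markers from 6009 to 7922 CPM and from 6062 to 7005 CPM. By quasi-likelihood in edgeR, 0 genes of these 6 lists were called, against 0.0152% of all genes. In that test 0 reached an unadjusted p under 0.05, against 4.23% of all genes, and all 6 pairs of ranges overlapped. Fitted log2 fold changes were above 0 for 1 of 10 pyramidal neuron markers (median -0.06), 2 of 8 Pvalb and Sst interneuron markers, 3 of 7 deep-layer markers, 2 of 6 astrocyte markers, 5 of 6 microglia markers and 1 of 6 oligodendrocyte markers, against 47.5% of all genes. Over the 6 lists the groups did not overlap for 1 gene that was higher in ELS mice (Cx3cr1, of microglia) and 1 that was lower (Aldh1l1, of astrocytes), against 3.81% and 4.47% of all genes.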
